A study of Mus musculus with 23 samples.

Results

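The genes described here encode the CD3 signalling chains, the constant regions of the T cell receptor and a pair of T cell surface receptors. They are Cd3d, Cd3e, Cd3g, Trac, Trbc1, Trbc2, Trdc, Cd5 and Cd6. They were taken by symbol from the RNA counts, 9 of 35645 genes, and their chromatin was taken from the 12 of 51412 accessible regions (peaks) that the authors' table assigns to them. The set was chosen with the RNA levels known, so the RNA values are given as a description with no test. The sorted cells were mouse natural killer (NK) cells, which circulate, and type 1 innate lymphoid cells (ILC1s), which stay in tissue. RNA came from the liver of 6 mice, with at most 1 library of each population per mouse. NK cells carried an S1pr5eGFP reporter signal (S1pr5eGFP+, mice 1, 4, 5 and 6). The ILC1s were split by granzyme C (GzmC) and a fate-map mark of its past expression (GzmcFM). DN cells had neither (GzmC-GzmcFM-, mice 2, 4 and 6), FMSP cells had the mark alone (GzmC-GzmcFM+, mice 3 to 6), and DP cells had both (GzmC+GzmcFM+, mice 3 to 6). Chromatin accessibility was measured by ATAC-seq on 50000 sorted cells per library, with 2 libraries each of liver NK, liver ILC1, spleen NK and salivary gland ILC1 cells. For these the design text gives the gate as NK1.1+NKp46+ with CD49a-CD49b+ for NK cells and CD49a+ for ILC1s, whereas the sample labels name the reporters. A gate against CD3, and the age and background strain of the mice, are not given in the sources used here.

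In a T cell, the rearranged alpha and beta chains, or gamma and delta chains, bind antigen and rely on the CD3 gamma, delta and epsilon chains with CD247 (zeta) to pass the signal into the cell. NK cells and ILC1s carry no rearranged receptor on their surface, and signal through other receptors that also use CD247 and the Fc receptor gamma chain Fcer1g. Constant-region genes can be transcribed from an unrearranged locus, so RNA of a constant gene does not by itself mark a T cell, whereas variable segments (Trav, Trbv) are joined to it by recombination in T cells.

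The 3 CD3 genes stand side by side on chromosome 9 (mm10). Cd3g occupies chr9:44969572-44980431 on the minus strand, Cd3d chr9:44981769-44987052 on the plus strand, and Cd3e chr9:44998735-45009663 on the minus strand. The bodies of Cd3g and Cd3d lie 1337 bases apart and are transcribed away from each other, whereas 11682 bases separate Cd3d from Cd3e. The 250 bases before the RefSeq start of each CD3 gene and of Cd5 are shown, because Cd3g departed from its neighbours in RNA and because a peak covered the starts of Cd3g and Cd5. They are read 5′ to 3′ on the gene's own strand (RefSeq, GRCm38.p6, the assembly of mm10). The starts used for Cd3d (44981786), Cd3e (45009611) and Cd5 (10738974) lie inside the full gene span. The last bases of these windows therefore overlap that span.
Cd3g, chr9:44980432-44980681, minus strand: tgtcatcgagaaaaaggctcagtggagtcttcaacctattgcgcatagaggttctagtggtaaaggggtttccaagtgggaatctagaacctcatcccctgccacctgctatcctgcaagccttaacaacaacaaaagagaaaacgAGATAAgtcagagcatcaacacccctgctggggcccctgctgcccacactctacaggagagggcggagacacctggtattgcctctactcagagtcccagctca
Cd3d, chr9:44981536-44981785, plus strand: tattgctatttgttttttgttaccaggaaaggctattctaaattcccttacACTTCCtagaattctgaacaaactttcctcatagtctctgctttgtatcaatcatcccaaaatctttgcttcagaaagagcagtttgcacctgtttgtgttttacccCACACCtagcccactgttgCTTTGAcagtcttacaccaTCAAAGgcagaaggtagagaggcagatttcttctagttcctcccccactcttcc
Cd3e, chr9:45009612-45009861, minus strand: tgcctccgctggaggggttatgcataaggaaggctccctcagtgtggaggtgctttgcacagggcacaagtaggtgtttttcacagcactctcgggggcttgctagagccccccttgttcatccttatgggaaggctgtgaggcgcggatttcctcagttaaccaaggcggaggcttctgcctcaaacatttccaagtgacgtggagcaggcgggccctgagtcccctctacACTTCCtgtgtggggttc
Cd5, chr19:10738975-10739224, minus strand: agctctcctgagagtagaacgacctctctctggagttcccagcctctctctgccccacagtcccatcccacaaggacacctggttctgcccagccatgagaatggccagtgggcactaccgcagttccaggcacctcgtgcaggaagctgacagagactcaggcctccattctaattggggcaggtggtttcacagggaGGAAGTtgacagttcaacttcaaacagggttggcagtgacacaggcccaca
Capitals mark matches on either strand to 5 short motifs. The letters AGATAA, for GATA factors, were in 9.99% of 32851 RefSeq promoters read over the same length, and here once in Cd3g. ACTTCC, for Ets factors, was in 19.7% of promoters, and here once each in Cd3d, Cd3e and Cd5. Those in Cd3e and Cd5 lie in the part that overlaps the gene span. CTTTGA, for TCF factors, was in 13.8% of promoters, and here 2 times in Cd3d. GGTGTG, for T-box factors, was in 16.3% of promoters, and here once in Cd3d. TGTGGT, for Runx factors, was in 14.05% of promoters and had 0 matches in these 4 windows. No match overlapped another. The promoter of Trac, Trbc1, Trbc2, Trdc and Cd6 is not shown.

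RNA libraries held 51641248 to 73309063 counts, and ATAC libraries 5609587 to 26944890 counts in peaks. Defining ILC1 genes (Itga1, Cxcr6, Zfp683, Tnfsf10 and Il7r) summed to 21.7 to 36.5 CPM (counts scaled to the same total in every library) in NK libraries and 1020 to 2145 in ILC1 libraries, as labelled, and the NK lineage genes Ncr1 and Klrb1c were present in all 15. DN of mouse 2, the library highest in Cd3e, Cd3d, Trac and the variable segments, stood apart, with 2543 CPM summed over 5 NK genes (Ncr1, Klrb1c, Klrk1, Eomes and Tbx21) against 4873 to 8602 in the other libraries and the lowest ILC1 sum of the 11. Markers of other cells were not at 0 in any population. The 10 hepatocyte genes summed to 878 CPM in the DN library of mouse 2, to 837 and 1918 in the FMSP libraries of mice 5 and 6, and to 72.9 to 390.4 in the other 12 libraries. The 7 myeloid genes peaked at 1479 CPM in DN of mouse 2, and the 7 B cell genes were at 297 to 759 CPM in NK and 581 to 1245 in ILC1s, so that they too were higher in most ILC1 libraries. Their part in the differences between ILC1s and NK was not tested. All 9 genes passed the filter on low counts, Cd5 and Cd6 through the DN and FMSP libraries. In bulk RNA, fewer cells of a type and less RNA per cell cannot be told apart.

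Cd3e and Cd3d, the epsilon and delta chains, were high in DN and low in NK and DP. Cd3e stood at 22.1, 1.56, 2.51 and 17.1 CPM in NK (mice 1, 4, 5 and 6), at 536, 179.6 and 165 in DN (mice 2, 4 and 6), at 304, 141, 32.4 and 281 in FMSP (mice 3 to 6) and at 62.4, 21.3, 14.6 and 19.6 in DP (mice 3 to 6). Cd3d stood at 6.79, 2.70, 3.42 and 14.8 CPM in NK, at 200.5, 80.0 and 79.0 in DN, at 120.3, 58.7, 22.7 and 91.0 in FMSP and at 35.4, 19.8, 10.3 and 13.2 in DP, in the same order of mice. For both genes every DN library lay above every DP library, the FMSP libraries overlapped with each of these groups, and the DP libraries overlapped with NK. DP was lower than DN by a log2 difference of -3.32 ± 0.92 (SE) for Cd3e and -2.61 ± 0.65 for Cd3d. With any 1 of the 15 libraries left out, the Cd3e difference stayed between -3.99 and -2.55.

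Cd3g, the gamma chain, had another pattern: it was high in all 11 ILC1 libraries and low in NK. It stood at 8.72, 2.07, 2.58 and 16.7 CPM in NK, at 558, 285 and 156 in DN, at 889, 949, 474 and 386 in FMSP and at 926, 1153, 602 and 316 in DP. No ILC1 library overlapped with NK, while the 3 ILC1 populations overlapped with each other. Against NK, the log2 difference of Cd3g was 5.47 ± 0.75 in DN, 6.49 ± 0.78 in FMSP and 6.64 ± 0.78 in DP. For Cd3e these were 4.76 ± 0.97, 4.13 ± 0.92 and 1.44 ± 0.83. The step from DN to DP thus had opposite signs in Cd3g and Cd3e under all 20 alternatives. Not every step between neighbouring populations kept its sign over those alternatives. The difference of DP from FMSP ran from -0.30 to 0.40 in Cd3g and from -3.36 to -2.37 in Cd3e. That of FMSP from DN ran from 0.69 to 2.06 in Cd3g and from -0.94 to 0.37 in Cd3e. DP differed from DN in Cd3g by 1.17 ± 0.68, on the other side of 0 from Cd3e and Cd3d.

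The count ratio of Cd3g to Cd3e shows the parting within each library. It is not scaled for gene length, so only its change between libraries can be read. It was 0.394, 1.32, 1.03 and 0.976 in NK, 1.04, 1.59 and 0.947 in DN, 2.93, 6.75, 14.6 and 1.37 in FMSP and, at its highest, 14.8, 54.0, 41.3 and 16.1 in DP. Every DP library was above every other library, and DN and NK overlapped. The ratio of Cd3d to Cd3e moved far less, between 0.324 and 0.928 over the 11 ILC1 libraries.

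**Figure D1:**
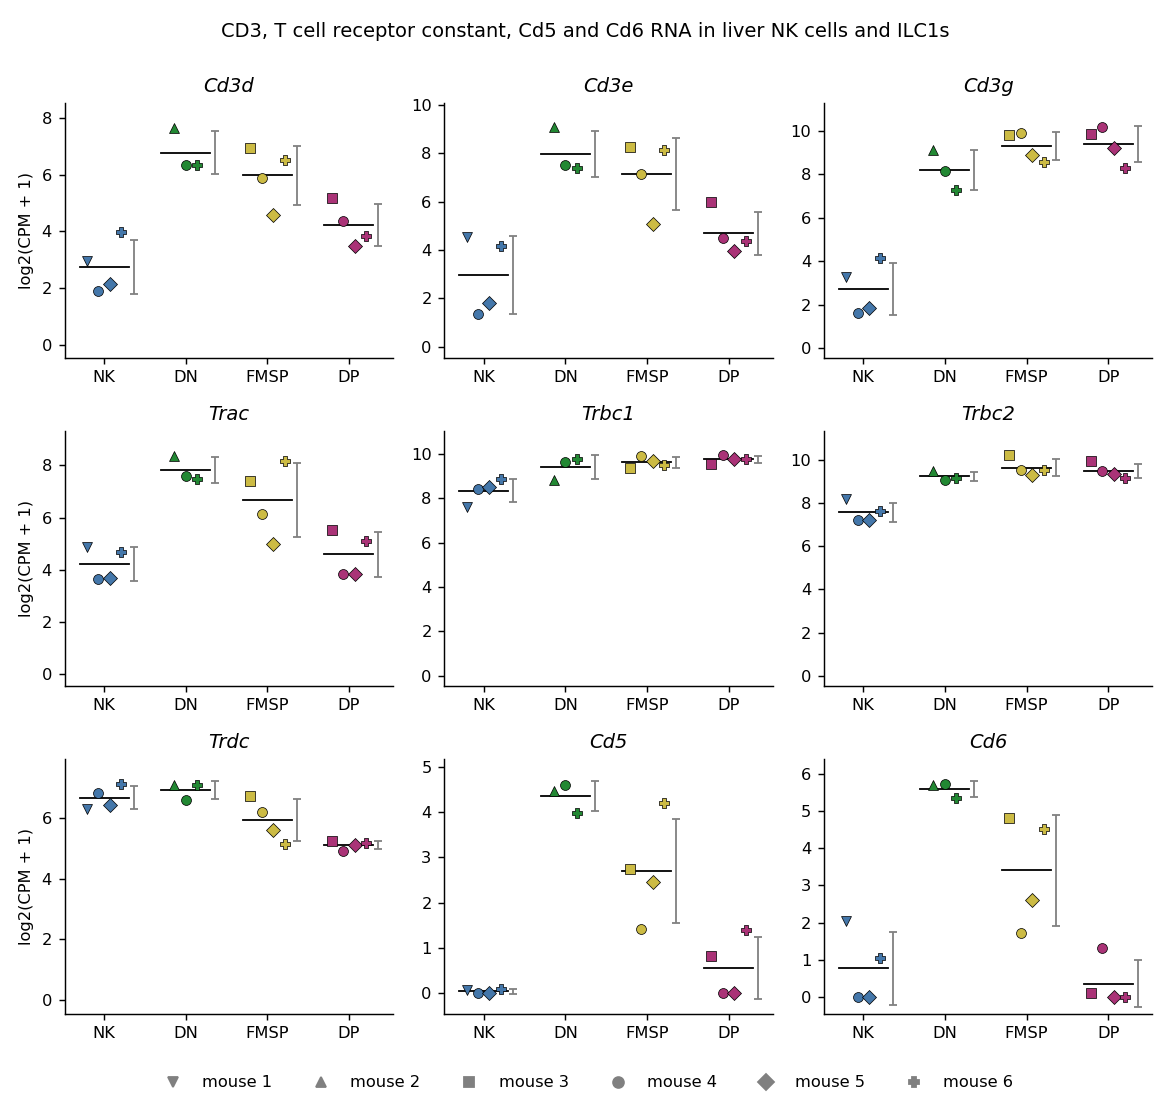
RNA level of each of the 9 genes, as log2 of CPM plus 1, in every library of NK (n = 4), DN (n = 3), FMSP (n = 4) and DP (n = 4), with the mouse as the marker shape, the population mean as a line and the SD as a bar. Cd3e, Cd3d, Trac, Cd5 and Cd6 step down from DN to DP, whereas Cd3g, Trbc1 and Trbc2 stay high in DP.

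Trac, the alpha constant gene (chr14:54220521-54224198), followed Cd3e and Cd3d. It stood at 28.1, 11.4, 11.7 and 24.7 CPM in NK, at 331, 193 and 179.7 in DN, at 169.7, 68.9, 30.6 and 286 in FMSP and at 45.5, 13.3, 13.4 and 33.4 in DP. DP overlapped with NK, at a log2 difference of 0.48 ± 0.59, and lay below every DN library, at -3.15 ± 0.66.

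The beta constant genes, Trbc1 (chr6:41538219-41539665) and Trbc2 (chr6:41546730-41548181), did not follow Trac. Trbc1 stood at 193, 335, 367 and 462 CPM in NK, at 447, 802 and 868 in DN, at 658, 964, 821 and 713 in FMSP and at 747, 973, 882 and 873 in DP. Trbc2 stood at 288, 149.7, 148 and 198 CPM in NK, at 713, 537 and 575 in DN, at 1177, 735, 624.6 and 736 in FMSP and at 974, 718, 646 and 577 in DP. Both genes were above 140 CPM in every NK library, and the ILC1 populations overlapped with each other. Trbc1 in DN of mouse 2 fell within the NK range, and no ILC1 library did so for Trbc2. That DN library, at 447 CPM, was above NK of mouse 1, at 193, and below only the highest NK library, at 462. Both genes split by mouse. NK of mouse 1, DN of mouse 2, and FMSP and DP of mouse 3 had the lowest Trbc1 and the highest Trbc2 of their populations. The cause of this split was not tested. The genes are near-identical copies, and how reads shared between them were counted is not given in the sources used here, so their separate levels are uncertain.

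Trdc, the delta constant gene (chr14:54142851-54146108), was the only one of the 9 with a DP level below every NK library. It stood at 77.7, 113, 86.6 and 139.8 CPM in NK, at 138, 96.0 and 136 in DN, at 106, 73.6, 47.6 and 34.7 in FMSP and at 37.2, 29.5, 33.8 and 35.4 in DP. NK and DN overlapped, and the DP libraries spanned the narrowest range. The log2 difference from NK was 0.24 ± 0.32 in DN, -0.67 ± 0.30 in FMSP and as low as -1.62 ± 0.31 in DP. For FMSP it moved to -0.21 without the 3 libraries high in hepatocyte genes and to -1.12 within mice 4 to 6.

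Cd5 and Cd6, surface receptors that tune T cell receptor signalling, were near 0 in NK and DP. Cd5 stood at 0.056, 0, 0 and 0.075 CPM in NK, at 21.0, 23.4 and 14.8 in DN, at 5.70, 1.68, 4.46 and 17.5 in FMSP and at 0.76, 0, 0 and 1.63 in DP. Cd6 stood at 3.10, 0, 0 and 1.08 CPM in NK, at 50.9, 51.9 and 39.8 in DN, at 26.9, 2.28, 5.12 and 21.95 in FMSP and at 0.084, 1.47, 0 and 0 in DP. For both genes all DN and FMSP libraries lay above all DP libraries, and DP overlapped with NK. Their fitted fold changes against NK have large errors (9.15 ± 2.00 for Cd5 in DN) and depend on the few counts in NK. With the mouse as a replicate block the Cd5 value became 11.33. The Cd6 difference of DP from DN moved from -6.92 to -10.63 without DP of mouse 4.

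**Figure D2:**
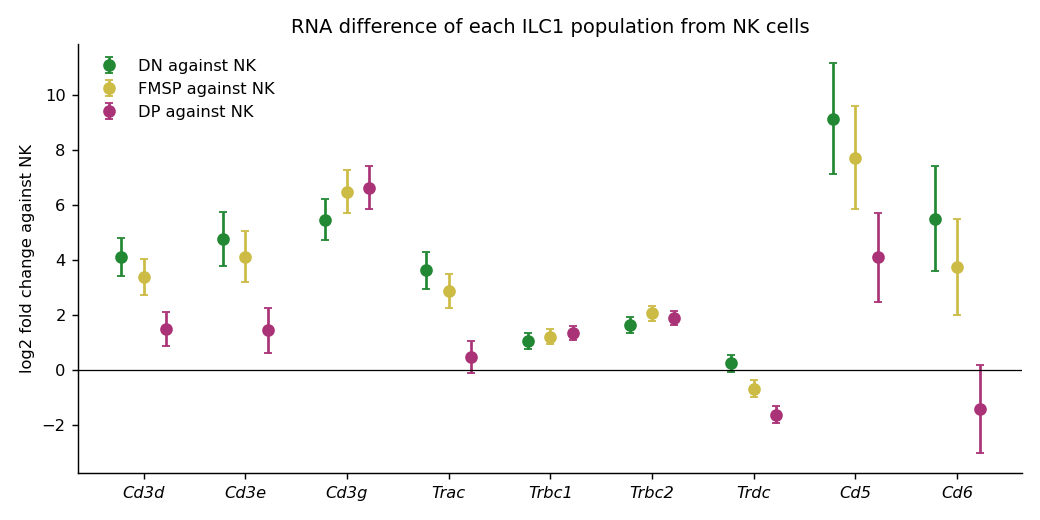
Fitted log2 fold change against NK of each gene in DN, FMSP and DP, with the SE as the bar, from a fit over all 15 libraries. The points of Cd3d, Cd3e, Trac, Trdc, Cd5 and Cd6 descend from DN to DP, and those of Cd3g run from 5.47 in DN to 6.64 in DP.

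Read as calls, 7 of the 9 genes were higher and 0 lower in the mean of the ILC1 populations than in NK, beside 5.92% of all 17124 genes tested that were called in either direction. In DP alone against NK, 3 were higher (Cd3g, Trbc1 and Trbc2) and 1 lower (Trdc), beside 699 of all genes. Between DP and DN 0 of the 9 were called, beside 0.0584% of all genes. Between FMSP and DN, and between DP and FMSP, 0 were called, beside 0.00584% of all genes in each case. Nothing is read from these counts, because the same values chose the genes.

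Alpha and beta variable segments gave a readout that the choice of genes did not use. Of 111 Trav symbols 91 had counts, and of 35 Trbv symbols 24, while the 60 Traj and 14 Trbj joining segments had 0 counts in every library. Summed Trav and Trbv counts came to 6.70, 1.32, 2.25 and 9.17 CPM in NK, to 139.8, 70.7 and 58.7 in DN, to 77.6, 37.5, 15.7 and 112 in FMSP and to 22.7, 6.67, 5.04 and 15.4 in DP. DN lay above all of DP, FMSP overlapped with both, and DP overlapped with NK. Within mice, FMSP exceeded DP in 4 of 4 for the segment sum and for Cd3e, Cd3d and Trac. DP exceeded NK in 3 of 3 mice for the segment sum, Cd3e and Trac, and in 2 of 3 for Cd3d. DN exceeded FMSP in 1 of 2 mice for each of these 4. For Cd3g, FMSP exceeded DP in 1 of 4 mice.

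Trac, Cd3e and Cd3d kept a narrow ratio to these segments over the ILC1 libraries, and Cd3g, Trbc1 and Trbc2 did not. Trac had between 1.84 and 3.06 counts per Trav and Trbv count in all 11 ILC1 libraries, Cd3e between 1.27 and 3.91, and Cd3d between 0.811 and 2.97. The same ratio ran from 2.66 to 173 for Cd3g, from 3.20 to 175 for Trbc1 and from 5.10 to 128 for Trbc2. In NK, where the segments were scarce, the Cd3g ratio was 1.14 to 1.82, close to that of Cd3e at 1.12 to 3.30, while Trac reached 8.60.

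Correlations of log2 levels with log2 of the segment sum over the 11 ILC1 libraries describe the same split. The points share mice and populations, so no p is given. Pearson's r was 0.99 for Trac, 0.97 for Cd3e, 0.95 for Cd3d, 0.90 for Cd5 and 0.80 for Cd6 (Spearman's rho 0.95, 0.98, 0.98, 0.88 and 0.82). It was 0.71 for Trdc, 0.17 for Trbc2, -0.31 for Cd3g and -0.67 for Trbc1 (rho 0.70, 0.21, -0.29 and -0.81). Without the 2 libraries farthest from the median segment sum, r was 0.99 for Trac, 0.97 for Cd3e, 0.95 for Cd3d and -0.08 for Cd3g. Within the 8 ILC1 libraries of mice 4 to 6 it was 0.99, 0.96, 0.94 and -0.55. Cd3e and Cd3d correlated with each other at 0.99, and Cd3e with Cd3g at -0.15. A list of 7 T cell genes (Cd4, Cd8a, Cd8b1, Cd28, Trat1, Themis and Ubash3a) did not fall as steeply as the segments. Its summed level had a median of 324 CPM over the DN libraries, 287 over FMSP, 256 over DP and 110 over NK. Ubash3a and Cd28 held 36.9% to 85.7% of that sum in ILC1 libraries and 89.3% to 95.7% in NK. The r with the segment sum was -0.24 for Ubash3a, -0.23 for Trat1, 0.28 for Cd28, 0.54 for Themis and 0.71 for Cd8a. These values depended on the mice: within mice 4 to 6 they were -0.12, 0.70, 0.68, 0.90 and 0.65 in that order.

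**Figure D3:**
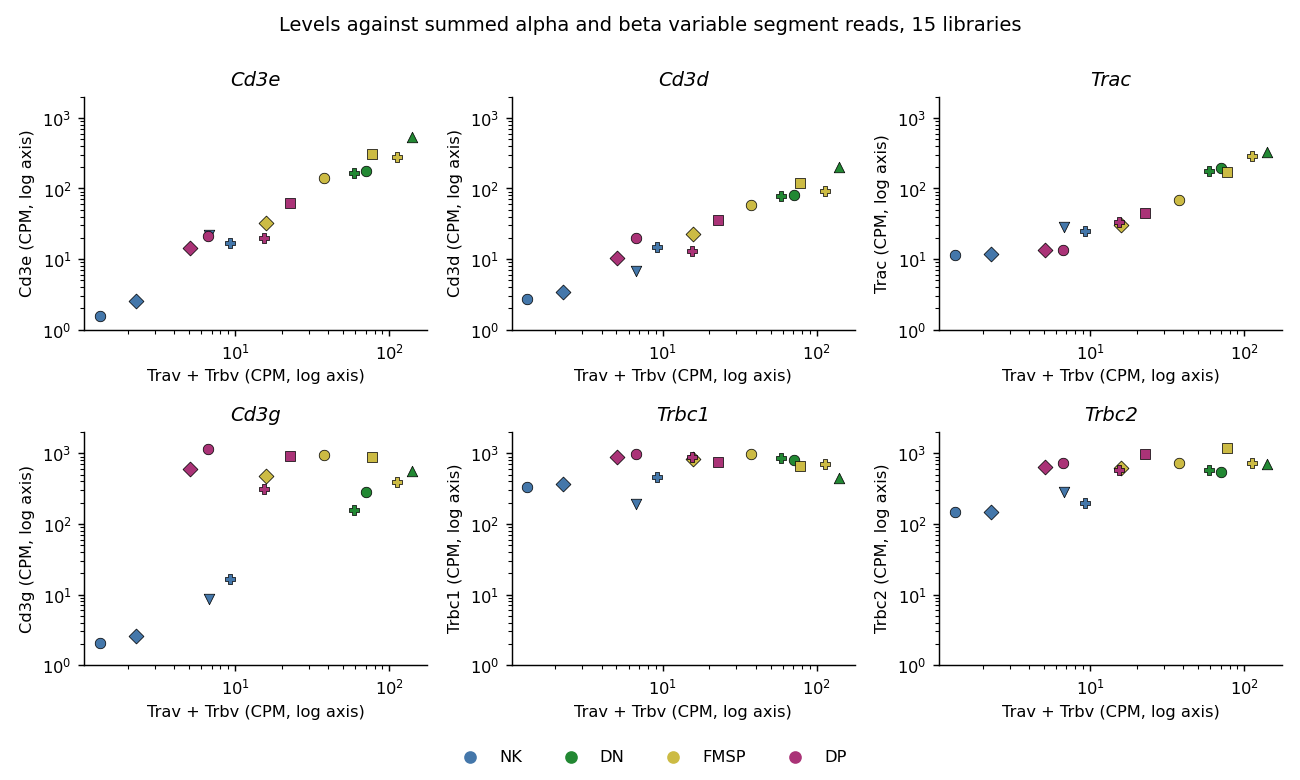
CPM of Cd3e, Cd3d, Trac, Cd3g, Trbc1 and Trbc2 (log axis) against the summed CPM of Trav and Trbv segments (log axis) in each of the 15 libraries, coloured by population. The upper 3 genes climb with the segments, while Cd3g in ILC1s lies between 156 and 1153 CPM and Trbc1 between 447 and 973 at any segment sum.

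A few segments held much of the signal. Trav11, the alpha segment of invariant natural killer T cells, held 37.3% of all Trav counts, followed by Trav13-4-dv7 with 8.18% and Trav6d-6 with 6.66%. The latter 2 rested on DN of mouse 2, without which they held 1.85% and 3.45%, while Trav11 held 38.3%. Trbv13-2, the beta segment that these T cells use most often in mice, held 40.6% of Trbv counts, followed by Trbv13-3 with 10.3% and Trbv12-2 with 7.92%. Without DN of mouse 2 the shares were 43.2%, 3.76% and 9.81%. Trav11 averaged 15.3 ± 5.33 CPM in DN (SD, n = 3), 10.48 ± 16.1 in FMSP (n = 4), 0.94 ± 1.11 in DP (n = 4) and 0.31 ± 0.58 in NK (n = 4). The FMSP mean rested on mouse 6, with 1945 Trav11 counts against 14 to 337 in the other FMSP libraries. Mouse 6 also had the largest Trbv13-2 share of Trbv counts in each population, at 79.3% in NK, at 60.5% in DN, at 74.6% in FMSP and at 49.3% in DP. Trav11 did not go with it in NK of mouse 6, with 3 of 188 Trav counts. In the same mouse it had 852 of 1650 in DN, 1945 of 2789 in FMSP and 93 of 322 in DP.

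Gamma and delta segments behaved differently from each other. The gamma variable segments (Trgv and Tcrg-V) summed to 0.049 to 2.11 CPM in NK, then to 42.8 to 50.3 in DN, to 29.8 to 46.2 in FMSP and to 15.003 to 27.9 in DP, and Tcrg-V1, Trgv2 and Tcrg-V4 had the most counts, the last of them ranking 4 without DN of mouse 2. NK did not overlap with any ILC1 population. The delta variable segments (Trdv) summed to 64.1 to 85.2 CPM in NK, then to 24.8 to 89.8 in DN, to 50.1 to 80.1 in FMSP and to 48.6 to 75.5 in DP, with all populations overlapping. Over all libraries Trdv4 held 61.2% of their counts, Trdv2-2 34.9% and Trdv1 2.06%. Trdv2-2 was at 29.0 to 43.4 CPM in NK, above all 11 ILC1 libraries, which were at 10.8 to 24.8. Trdv4 was at 22.3 to 44.2 CPM in NK and overlapped with each ILC1 population. Its lowest level in each population was in NK of mouse 1, DN of mouse 2, and FMSP and DP of mouse 3, the libraries lowest in Trbc1.

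The gamma constant genes split in the way the alpha and beta genes did. Tcrg-C4 averaged 6.95 ± 3.02 CPM in NK against 264 ± 141 in DN, 368 ± 98.7 in FMSP and 419 ± 118 in DP. Tcrg-C2 averaged 3.21 ± 4.53, 105 ± 22.4, 55.8 ± 26.6 and 17.7 ± 7.43 in that order, and Tcrg-C1 0.91 ± 0.87, 97.3 ± 24.9, 35.6 ± 15.4 and 11.5 ± 6.57. Tcrg-C4 was high in DP beside Cd3g, while Tcrg-C1 and Tcrg-C2 were highest in DN. The r with the Trav and Trbv sum was -0.59 for Tcrg-C4, 0.94 for Tcrg-C2 and 0.85 for Tcrg-C1 (n = 11 ILC1 libraries). Reads shared between these similar genes leave their separate levels uncertain.

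**Figure D4:**
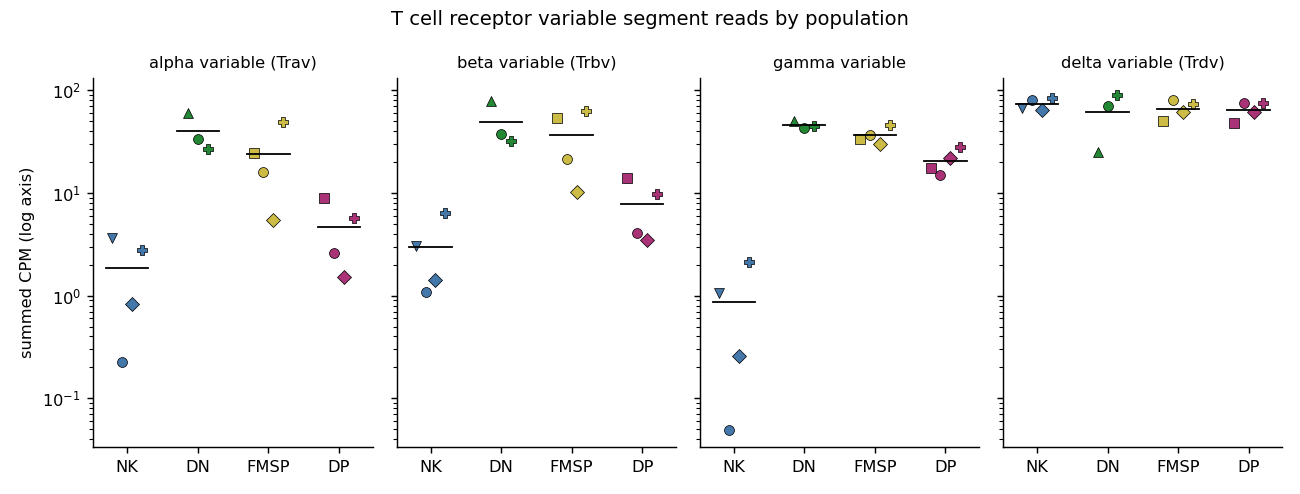
Summed CPM (log axis) of alpha, beta, gamma and delta variable segments in every library, by population, with the mean as a line and the mouse as the marker shape. Alpha and beta segments descend from DN to DP, gamma segments are lowest in NK, and delta segments overlap in all 4 populations.

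Genes with the most similar RNA pattern over the 15 libraries were found by Pearson's r of log2 CPM. The candidates were 9880 genes with a mean of at least 5 CPM. The genes described here and other T cell receptor genes were left out of the candidates, so closer partners among them are not listed. For Cd3g they were Ccl1, a chemokine, at 0.98, Ckb at 0.98 and Klk8 at 0.97. For Trbc2 they were Ada, Klk8 and Gstp3 at 0.97 to 0.98, and for Trbc1 Tgtp2, Sntb1 and Tnfsf8 at 0.96 to 0.98. Among these candidates the values were lower for Cd3e, with Cd8a and Ly6a at 0.88 and Rgs10 at 0.87. They were also lower for Cd3d, with Timeless at 0.87, Cd8a at 0.86 and Ramp1 at 0.85. This does not make Cd3e less co-expressed than Cd3g. Over the ILC1 libraries alone, r of Cd3e was 0.99 with Cd3d and 0.96 with Trac. The highest r of Cd3g with another of the genes described here was 0.69, with Trbc2. Trac was nearest to Ly6a at 0.84, Aopep at 0.82 and Kctd3 at 0.80, and Cd5 to Aopep at 0.89, Ly6a at 0.84 and Gpr183 at 0.83. Trdc was nearest to the Ly49 gene Klra6 at 0.88, Asap2 at 0.85 and Mthfd2 at 0.84, and Cd6 to Klhdc8b at 0.82, Fuk at 0.78 and Lpcat2 at 0.77.

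The receptor's signalling partners were read from a list of 34 genes, which the choice of the 9 did not use. This list and the T lineage list below were, however, chosen with earlier results of these data known. In the mean of the ILC1 populations against NK, 4 were higher and 5 lower, beside the 5.92% of all genes, with a list median of -0.04 against 0.08 over all genes (log2). Plcg1, the phospholipase downstream of the receptor, rose from 3.42 ± 1.08 CPM in NK (n = 4) to 47.8 ± 9.92 in DN, 53.0 ± 33.9 in FMSP and 33.4 ± 7.71 in DP. Its log2 difference was 3.68 ± 0.41 (SE, edgeR adjusted p = 4.3e-05). Trat1, a receptor-associated adaptor, rose by 3.78 ± 0.75, the phosphatase-like regulator Ubash3a by 1.80 ± 0.33, and the scaffold Lat by 0.88 ± 0.20. Cd247, the zeta chain, went the other way and averaged 300.0 ± 46.2 CPM in NK against 92.1 ± 58.2 in DN, 109 ± 4.69 in FMSP and 94.3 ± 26.4 in DP (log2 difference -1.61 ± 0.28, edgeR adjusted p = 0.0017). Sh2d1a, the adaptor SAP, fell by 3.73 on the log2 scale, the kinase Fyn by 1.36, the kinase Prkcq by 1.10 and the adaptor Sh2d2a by 0.68. In DN alone against NK, edgeR called Plcg1 and Trat1 higher and Cd247, Fyn, Prkcq and Sh2d2a lower. It did not call Sh2d1a (-2.01 ± 0.62, adjusted p = 0.106), Ubash3a (1.42 ± 0.38, 0.0621) or Lat (0.76 ± 0.24, 0.116) there. In the ILC1 mean, the kinase Lck differed by -0.12 ± 0.22. The kinase Zap70 differed by 0.68 ± 0.27 and Fcer1g by -0.40 ± 0.20, and none of them was called. With the mouse as a replicate block, Zap70 (0.81, adjusted p = 0.0055) and Fcer1g (-0.46, adjusted p = 0.010) were called. The Lat call was lost without NK of mouse 4, 5 or 6 (adjusted p = 0.0522 to 0.0687), and the Sh2d2a call without NK of mouse 1 or 5 (0.105 and 0.0792) or without the 3 libraries high in hepatocyte genes (0.0646). With library totals in place of TMM scaling the median over all genes shifted by 0.13, and 60.0% of all calls were higher in ILC1s in place of 48.9%. The count of 9 called signalling genes became 20 with the mouse as a replicate block, 20 within mice 4 to 6 and 14 with DESeq2. The calls over all genes rose with it, from 1014 to 2168, 2392 and 1850.

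Other genes of the T lineage were read from a list of 27, of which 26 were tested. In ILC1s 9 were higher and 4 lower, beside 5.92% of all genes called, with a median of 1.32 against 0.08 over all genes (log2), and 8 in all were called without NK of mouse 5. Cd7 rose by 3.39 ± 0.25, Bcl11b, a T and innate lymphoid transcription factor, by 3.28 ± 0.37, Cd8a by 3.70 ± 0.90 and Actn1 by 3.75 ± 0.71. Thy1, Icos and Cd27 also rose, by 1.64, 1.30 and 0.97. Among the called genes, Cd40lg, the helper ligand of CD40, and Izumo1r had 0 counts in all 4 NK libraries and averaged 11.2 ± 5.20 and 10.5 ± 2.21 CPM in DN (n = 3). In DP they averaged 0.48 ± 0.85 and 0.43 ± 0.50 (n = 4). Lef1, Cd2 and Satb1 fell, by 1.80, 1.43 and 1.43. In DN alone against NK, edgeR called Cd2 lower (-1.48 ± 0.36, adjusted p = 0.0404). It did not call Lef1 (-0.65 ± 0.37, adjusted p = 0.416) or Satb1 (-1.01 ± 0.31, adjusted p = 0.108) there. Lef1 in DN, at 39.2 to 100.4 CPM, overlapped with NK, at 89.7 to 115.6. Cd4 averaged 1.97 ± 1.43 CPM in NK against 5.89 ± 5.19 in DN, 9.41 ± 2.86 in FMSP and 6.90 ± 4.83 in DP, and neither Cd4, Cd8b1 nor Cd28 was called. Of the calls for the ILC1 mean, that of Cd8a was lost without NK of mouse 4, 5 or 6 (adjusted p = 0.0724 to 0.0849). That of Icos was lost without NK of mouse 5 (0.0546). Cd27 lost its call without the filter on low counts (0.057) and without any 1 library other than DN of mouse 2, FMSP or DP of mouse 3 and NK of mouse 6 (up to 0.168). Cd40lg lost its call without any 1 NK library (up to 0.062). Izumo1r lost its call with the mouse as a replicate block (0.0606), within mice 4 to 6 (0.0904) and without any 1 library other than FMSP of mouse 5 and DP of mice 4 and 5 (up to 0.104).

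Between DP and DN, the signalling list had 0 of 34 called by edgeR, beside the 0.0584% of all genes, with 4 at an unadjusted p below 0.05, beside 10.2% of all genes, and 3 called by DESeq2, which called 510 of all genes. The lineage list had 1 of 26 called, and 0 without the 3 libraries high in hepatocyte genes or in the fit of these populations alone. The count was also 0 without any 1 of the 4 NK libraries, FMSP of mouse 5 or 6, DN of mouse 4 or DP of mouse 5 or 6, and it was 2 without DN of mouse 6. With the mouse as a replicate block 2 lineage genes were called. Between FMSP and DN, and between DP and FMSP, edgeR called 0 of both lists, beside 0.00584% of all genes in each case. In the first of these 6 signalling and 4 lineage genes had an unadjusted p below 0.05, beside 6.80% of all genes, and DESeq2 called 1 and 2, beside 228 of all genes. In the second 1 and 4 had an unadjusted p below 0.05, beside 4.49% of all genes, and DESeq2 called 0 and 0, beside 222 of all genes.

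Chromatin over these genes was measured in other libraries and could be tested. The authors assign 3 peaks to Cd3e, 2 each to Trac, Cd5 and Cd6, and 1 each to Cd3d, Cd3g and Trbc2, and all 12 passed the filter. Of these, only the peaks labelled promoter of Cd3g and Cd5 covered the RefSeq start. The centre of the Cd3d peak labelled promoter lay 4675 bases downstream of the start, and that of Cd3e lay 11316 bases downstream, so that both peaks lay over the 3′ end of their gene.

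In the liver, the Cd3g promoter peak was measured in both NK cells and ILC1s and was not called different between them. The peak (chr9:44979830-44980814) stood at 7.05 and 5.63 CPM in liver NK and 6.73 and 8.97 in liver ILC1, with overlapping libraries. The log2 difference was 0.31 ± 0.34 (edgeR adjusted p = 0.564), which does not show that the levels were the same. In spleen NK it stood at 1.56 and 1.95 CPM, below all other libraries, and in salivary gland ILC1 at 5.47 and 4.86. Spleen NK was lower than liver NK by -1.86 ± 0.39 (adjusted p = 2.5e-05), and salivary gland ILC1 was higher than spleen NK by 1.56 ± 0.37 (adjusted p = 1.1e-04).

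Of the 12 peaks, 2 were higher and 1 lower in liver ILC1 than in liver NK, beside 18.7% of all 51292 peaks tested. The Cd3d peak (chr9:44985397-44987526) stood at 48.2 and 59.5 CPM in NK and 70.7 and 94.3 in ILC1 (0.62 ± 0.20, adjusted p = 0.0153). The Cd3e peak labelled promoter (chr9:44997812-44998777) stood at 9.27 and 6.92 CPM in NK and 11.2 and 15.5 in ILC1 (0.73 ± 0.27, adjusted p = 0.0412). A Cd6 intron peak (chr19:10815543-10816601) stood at 11.4 and 12.7 CPM in NK and 5.09 and 6.92 in ILC1 (-0.98 ± 0.30, adjusted p = 0.0103). The libraries did not overlap at any of these 3 peaks. The Cd3d call was lost without liver NK replicate 1 (0.235) or liver ILC1 replicate 2 (0.282), and the Cd6 call without liver NK replicate 2 (0.0874) or liver ILC1 replicate 1 (0.0837). The Cd3e call was lost with DESeq2 (0.109), with library totals (0.129) and without any library but liver ILC1 replicate 1. The 3 calls became 1 without either liver NK library or without liver ILC1 replicate 2. The share called over the 12 was close to the background, and their median was -0.10 against 0.00051 over all peaks.

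Between salivary gland ILC1 and spleen NK, 4 of the 12 peaks were higher and 2 lower, beside 48.2% of all peaks. The Cd3e peak labelled promoter stood at 5.89 and 5.18 CPM in spleen NK and 13.4 and 17.2 in salivary gland ILC1 (1.47 ± 0.26, adjusted p = 7.6e-08). The Cd5 promoter peak (chr19:10738675-10739375) stood at 4.34 and 5.76 CPM in spleen NK and 0.75 and 0.58 in salivary gland ILC1, the lowest values of the 4 groups (-2.93 ± 0.43, adjusted p = 7.4e-11). In liver it overlapped between NK, at 5.35 and 8.04, and ILC1, at 7.18 and 4.00. The Cd6 intron peak named above was lower by -1.40 ± 0.28 (adjusted p = 4.6e-06), in the direction seen in liver. Calls for an intergenic Cd3e peak (chr9:45014713-45015363, 0.99 ± 0.39) and an intergenic Trbc2 peak (chr6:41548956-41549630, 0.82 ± 0.31) were lost when 1 library was left out, for the first with spleen NK replicate 1 or either salivary gland library and for the second with any of the 4 libraries compared.

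By a test of the difference itself, the log2 difference of salivary gland ILC1 from spleen NK departed from that of liver ILC1 from liver NK at 4 of the 12 peaks, beside 30% of all peaks. It was -2.93 against -0.28 in liver at the Cd5 promoter, 1.56 against 0.31 at the Cd3g promoter, 0.82 against -0.83 at the Trbc2 peak and -0.31 against 0.53 at the Trac intergenic peak.

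Between organs, 1 of the 2 Trac peaks differed in both cell types. The Trac promoter peak (chr14:54221991-54223108) was at 60.8 and 65.8 CPM in liver NK, 45.6 and 68.7 in liver ILC1, 101 and 108 in spleen NK and 104 and 103 in salivary gland ILC1. The liver libraries were all below those of the other organs, and liver NK and liver ILC1 overlapped (-0.14 ± 0.20). Spleen NK exceeded liver NK by 0.72 ± 0.20 (adjusted p = 0.0018), and salivary gland ILC1 exceeded liver ILC1 by 0.85 ± 0.20 (adjusted p = 1.0e-04). The Trac intergenic peak was also higher in spleen than in liver NK (0.82), and overlapped between salivary gland and liver ILC1 (-0.0087, adjusted p = 0.976). In those comparisons between organs, 3 peaks were higher and 3 lower in spleen than in liver NK, beside 40.6% of all peaks, and 2 were higher and 2 lower in salivary gland than in liver ILC1, beside 48.7%. The 6 calls in spleen against liver NK became 3 without liver NK replicate 1, and the 4 between the ILC1 groups became 7 with library totals. Library totals in place of TMM scaling left 22.005% of all calls higher in spleen NK in place of 51.4%, and 29.9% higher in salivary gland ILC1 in place of 46.8%.

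**Figure D5:**
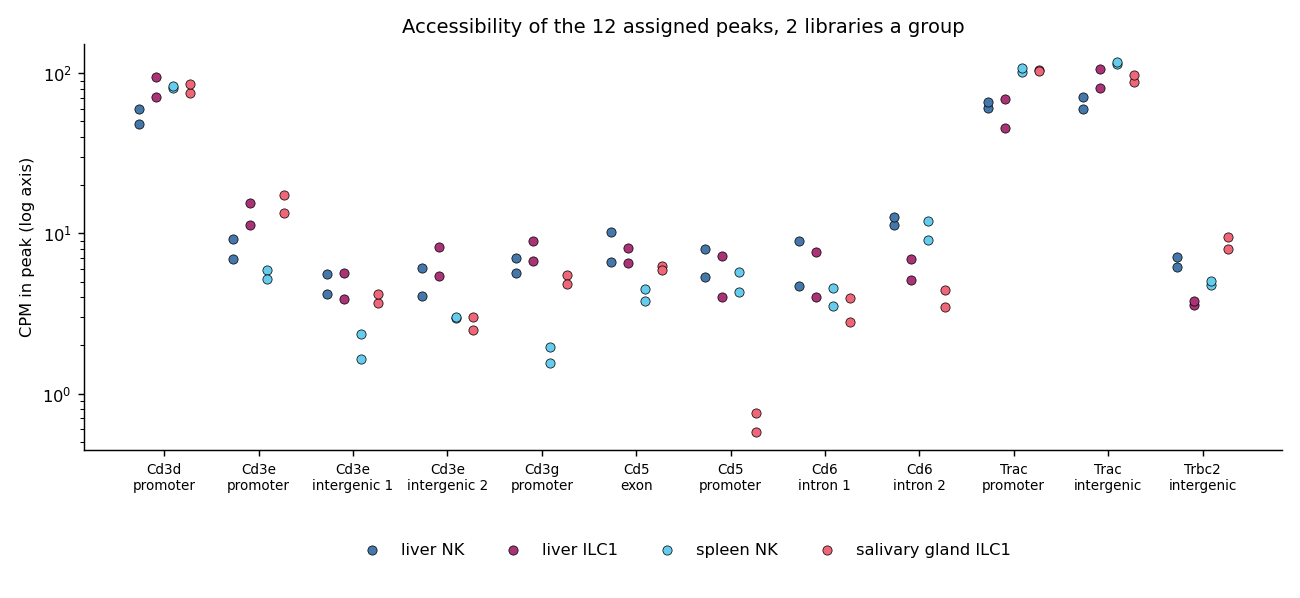
CPM (log axis) of the 12 assigned peaks in each ATAC library, with 2 points per group and peaks named by gene and by the authors' peak type. The Cd3g promoter is lowest in spleen NK (1.56 and 1.95 CPM) and the Cd5 promoter is lowest in salivary gland ILC1 (0.58 and 0.75 CPM).

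No peak was assigned to Trbc1 or Trdc, but peaks assigned to other genes lay near them, chosen by position after their values were seen and given without a test. A peak that overlaps Trdc (chr14:54145990-54148138, assigned to Gm43434) stood at 41.6 to 51.4 CPM in the 4 liver libraries and 47.7 to 61.7 in the other organs. Another Gm43434 peak (chr14:54137662-54139238) stood at 28.7 to 39.9 CPM in liver libraries and 29.9 to 39.0 in the other organs. Upstream of Trbc1, a peak assigned to Trbd1 (chr6:41532282-41533703) stood at 68.7 and 78.3 CPM in liver NK, 72.99 and 94.7 in liver ILC1, 150.0 and 117 in spleen NK and 145 and 121 in salivary gland ILC1. Between Trbc1 and Trbc2, a peak assigned to Trbd2 (chr6:41540884-41542641) separated the liver groups, at 27.0 and 32.8 CPM in NK and 43.5 and 53.1 in ILC1. It stood at 41.9 and 35.9 CPM in spleen NK and 28.0 and 31.9 in salivary gland ILC1.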

How the data were processed

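RNA values are the authors' deposited gene-level expected counts, all of them whole, made with Salmon 1.6 and the build mm10, per the submitters' processing notes. ATAC values are the authors' deposited counts per peak in 1 shared peak set. Bowtie2, SAMtools, MACS2 and mm10 are named in the submitters' processing notes, and the notes also name DESeq2. Strand and the handling of reads shared between genes are not given in the sources used here. Peak positions are printed as the authors' table gives them.

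Both tables were fitted whole with the quasi-likelihood test of edgeR 4.0.16 (R 4.3.3), with filterByExpr at a minimum count of 10, TMM scaling, robust dispersions and 1 mean per group over all libraries. This left 17124 genes with 11 residual degrees of freedom and 51292 peaks with 4. A call is a Benjamini-Hochberg adjusted p below 0.05 over all features tested, 2-sided. CPM use TMM-adjusted library sizes, and log2 CPM a prior count of 2. The ATAC labels name mouse replicates 1 and 2 and do not say whether a number is 1 animal across the sorts. DESeq2 1.42.0, library totals, no filter, the mouse as a block and leaving out libraries were alternatives. The fits were tested on simulated data.

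The genes, the gene lists, the comparisons and the tests were chosen with earlier results of these data known. Named list genes are the called ones with the largest fold changes that reach 10 CPM in 1 group, up to 5 in each direction, and always Cd247, Fcer1g, Zap70, Lck, Lat, Cd4, Cd8a, Cd8b1 and Cd28. Likeness names the 3 candidate genes of highest r, with T cell receptor genes left out, and segment families are named by their 3 highest totals. Further called genes (Thy1, Icos, Cd27) were named after their values were seen, and 1 lineage gene that the rule names is not reported here. RNA mouse numbers mark the same animal and so pair the libraries: deviations from the group means correlated at a median r of 0.113 over 16 pairs of 1 mouse and -0.0266 over 68 pairs of different mice. The main fit did not use this pairing. With the mouse as a replicate block, 2168 genes in place of 1014 were called between the ILC1 mean and NK. Library precision is limited by counting and by 2 to 4 libraries per group.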

Additional observations from a re-analysis of the deposited data

Results flagged for a closer look

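Within the DP libraries, mouse 3 stood far above the other 3 in Cd3e, at 62.4 CPM, and mouse 4 in Cd6, at 1.47 CPM where the others were at 0 to 0.084. The same DP library of mouse 3 was the highest of the 4 in myeloid genes (656 CPM against 36.7 to 148), B cell genes (1245 against 616 to 741) and hepatocyte genes (390.4 against 207 to 251), whose part was not tested. The hepatocyte sum in DP was mostly Trf, at a mean of 229 of 267 CPM. Chance flags about 1 in 20 groups of this size, and 2 of 27 were flagged.

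At 4 of the 12 peaks the difference of salivary gland ILC1 from spleen NK departed from that of liver ILC1 from liver NK, by edgeR's test of the difference itself, beside 30% of all peaks. This contrast was added after the data were seen, and organ cannot be told apart from any other difference between the sorts. The Cd5 promoter differed by -2.65 on the log2 scale (adjusted p = 5.3e-05), being lower in ILC1 of the salivary gland while the liver libraries overlapped. The Trbc2 intergenic peak differed by 1.65 (adjusted p = 0.0029) and the Trac intergenic peak (chr14:54227038-54228442) by -0.83 (adjusted p = 0.0163). The Cd3g promoter differed by 1.24 (adjusted p = 0.0472), which was not called with DESeq2 (0.0729) or without 7 of the 8 single libraries (0.0524 to 0.187). The Trac peak was not called without liver NK replicate 1 (0.101) or salivary gland ILC1 replicate 1 (0.0892).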

How the results depend on the processing

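No called value changed sign under any alternative run. Of the ILC1 and NK comparison, the 9 signalling genes called became 14 with DESeq2, 20 with the mouse as a replicate block, 20 within mice 4 to 6, and 7 to 11 with 1 library left out, and the 13 lineage genes became 8 to 13 with 1 library left out. Between DP and DN, the 0 signalling genes became 3 with DESeq2, 1 within mice 4 to 6, 1 without the 3 libraries high in hepatocyte genes and 0 to 1 with 1 library left out. The 1 lineage gene became 4 with DESeq2, 2 with library totals, 2 without the filter, 2 with the replicate block, 0 without the 3 libraries, 0 with only these populations fitted and 0 to 2 with 1 library left out. Between FMSP and DN, 0 and 0 became 1 and 2 with DESeq2, and 0 to 1 and 0 to 0 with 1 library left out. Of the peaks, the 3 calls in liver became 0 at an adjusted p below 0.01 and 1 to 3 with 1 library left out, the 6 of salivary gland ILC1 against spleen NK 4 to 7, the 4 of salivary gland against liver ILC1 7 with library totals and 3 to 5, and the 6 of spleen against liver NK 3 to 7. ATAC numbers are not stated to pair the libraries (r from -0.120 to 0.179 over 12 pairs), and no count of peaks moved by over 1.5 times with the number as a replicate block. Of 1260 alternative fold changes of the 9 genes, 11 moved by over 1 SD, 6 of them for Cd5 or Cd6. Named list genes and peaks whose call was lost are given beside their values, and the block with the mouse changed the calls of Zap70, Fcer1g and Izumo1r and of no other named list gene. With 2 ATAC libraries a group, leaving 1 out assumes that the lone library varies like the others.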
